A study of Mus musculus with 22 samples.

Results

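The DNA repair genes described here are 63 of the 22592 gene symbols shared by the expression tables of this series. They were taken by symbol from named families (Rad, Xrcc, Fanc, Brca, Msh, Mlh, Pms, Ercc and Parp) and from a short list of damage kinases, ligases and helicases, without use of any measured value. By role they fall into 10 genes of damage sensing, 16 of homologous recombination, 9 of the Fanconi pathway, 5 of end joining, 5 of single-strand break repair, 9 of mismatch repair and 7 of nucleotide excision repair. Rad18, a ubiquitin ligase of post-replication repair, and Rad54l2, a helicase relative of the Rad54 family, stood on their own.

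Cells recognise broken or unreplicated DNA through the kinases Atm, Atr and the DNA-dependent kinase Prkdc, and pass the signal to the checkpoint kinases Chek1 and Chek2. Double-strand breaks are then joined end to end by the Ku heterodimer and ligase IV, or copied from a sister or homologous chromosome with the help of Brca2, while crosslinks, mismatches, bulky lesions and nicks each have machinery of their own. Oocytes wait in meiotic prophase with their recombination completed, and the fertilised egg draws on transcripts and proteins stored by the oocyte until the embryonic genome is transcribed.

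Smart-seq2 libraries were made from mouse oocytes and early embryos with or without Setd2, the methyltransferase that places trimethylation on H3K36 over transcribed genes. Growing oocytes of 20 to 30 µm came from females of postnatal day 7, with Setd2+/- controls and Setd2-/- oocytes. Full-grown oocytes came from 8-week-old females 48 h after the gonadotropin PMSG, zygotes were taken 30 h after hCG, and a later sample is titled 48 h, all from 8-week-old females of the control or the Setd2 maternal knockout. At 48 h the controls are labelled 2-cell embryos and the knockouts 1-cell embryos and genotype and cell stage cannot be told apart there. The last Setd2 set held 8-cell embryos made by spindle transfer between oocytes of 8-week-old females given 5 IU PMSG and 5 IU hCG, labelled Setd2+/- or Setd2-/-, and the labels do not say whether the genotype refers to the spindle or to the recipient cytoplasm. Each of these groups had 2 libraries. A Dnmt3l knockout and its control were each represented by 1 library of full-grown oocytes, again from 8-week-old females 48 h after PMSG. The data columns of both are named as merged, and what was merged is not stated. Dnmt3l is a cofactor of the DNA methyltransferases of the oocyte. The labels used here do not give the driver of the Setd2 deletion, nor the number of animals behind a library, so each p-value reflects library-to-library spread, which may be technical.

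Setd2 itself stood at 0.968 and 0.927 FPKM in knockout full-grown oocytes against 4.75 and 4.35 in controls, and at 1.42 and 1.74 against 53.2 and 43.0 at 48 h. In growing oocytes the values were 3.67 and 3.21 in libraries labelled knockout against 4.33 and 6.68, and in spindle-transfer embryos 15.4 and 18.1 against 18.2 and 17.1. The growing oocyte libraries thus did not overlap though they lay close, and those of the spindle-transfer embryos overlapped. Dnmt3l stood at 25.0 FPKM in the library labelled Dnmt3l knockout and at 31.7 in its control. FPKM is a read count scaled by transcript length and library size, so levels of different genes can be set side by side. Each level is a share of its library, so a rise or fall between stages need not be a change in amount per cell. Read totals were not given, and the smallest steps between low values put the libraries at about 3060000 fragments in the shallowest zygote library and 21708000 in the deepest full-grown oocyte library. The exons of 21 repair genes overlap those of another coding gene, 19 of them on the opposite strand, and without strand the reads of such pairs cannot be told apart. Among the genes named below this holds for Fancl (with Vrk2), Rad9a (Ppp1ca), Ercc1 (Cd3eap), Xrcc4 (Tmem167), Xrcc6 (Desi1), Fanca, Fancc, Fancf, Fanci, Mre11a, Msh3, Msh6, Parp3, Rad17, Xrcc3 and Pms2.

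Chek1, the checkpoint kinase downstream of Atr, was among the most abundant repair transcripts of the control full-grown oocyte, with 115 and 124 FPKM. Lower levels belonged to the Ku subunits Xrcc5 (53.6 and 61.1 FPKM) and Xrcc6 (46.7 and 52.2), then the single-strand break scaffold Xrcc1 (35.1 and 57.1). The mismatch recognition subunits Msh3 and Msh6 had mean levels of 31.4 and 28.3 FPKM, and Xrcc3, a recombinase paralogue, had 29.0 FPKM. In contrast the apical kinases were scarce, with mean levels of 0.325 FPKM for Atm and 0.612 FPKM for Prkdc. Parp3 was at or near 0 in every library of the series, its highest value being 0.292 FPKM. Of the 63 genes, 54 (85.7%) reached 1 FPKM in both control libraries, against 42.3% of all symbols. The summed level of the 63 was 905 to 1001 FPKM.

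**Figure D1:**
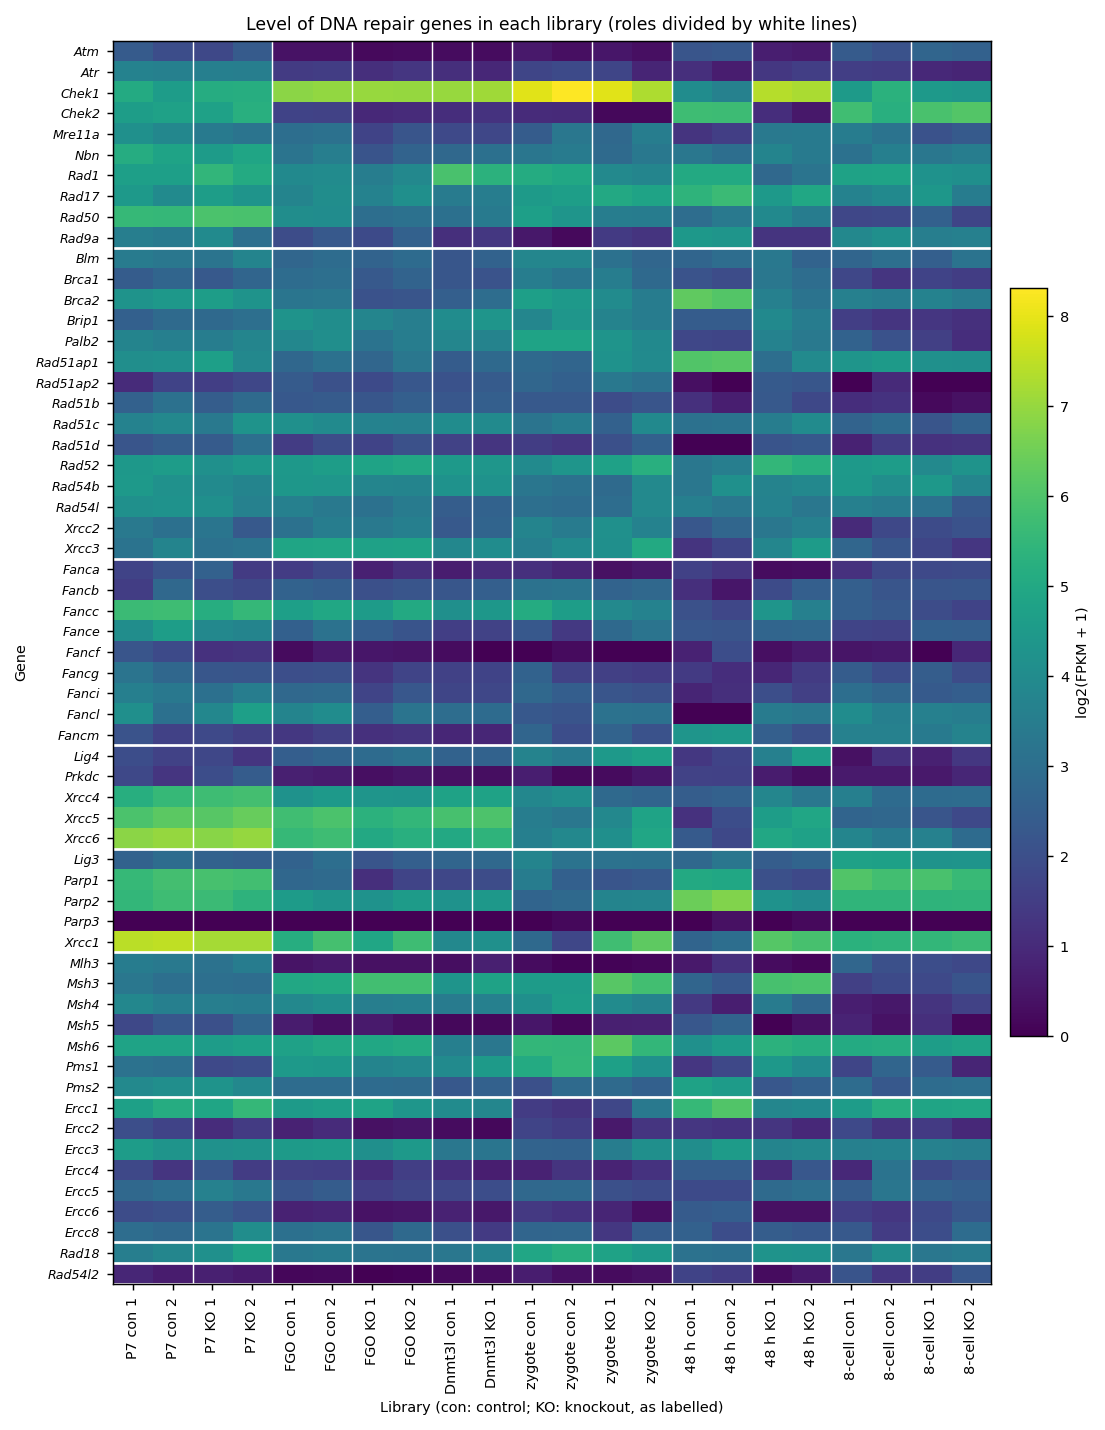
Level of DNA repair genes (rows, ordered by role and divided by white lines) in each of the 22 libraries (columns), as log2(FPKM + 1). Chek1 is brightest in zygotes, Xrcc1 in growing oocytes, and the 48 h control columns differ from their neighbours in many rows, among them Chek2, Brca2 and Parp2.

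The leading genes differed by stage. The tables of growing oocytes and of spindle-transfer embryos may have been normalized separately from the other stages, so levels across them are a description. In control growing oocytes Xrcc1 led with 174 and 183 FPKM, and Xrcc6 had a mean of 121 FPKM. Growing oocytes also had the broadest expression, with 61 of 63 genes at 1 FPKM or more in both control libraries. In control zygotes Chek1 had 246 and 316 FPKM, and Msh6 had a mean of 43.8. At 48 h the controls were led by 3 other genes, Parp2 (86.8 and 105 FPKM), Brca2 (76.4 and 67.2) and the recombination factor Rad51ap1 (65.6 and 69.5). In 8-cell embryos with the control label, Parp1 and Chek2 had means of 59.8 and 45.2 FPKM.

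Tests used limma on log2(FPKM + 1), and a gene is said to be called, or to have changed, where its p adjusted over all genes tested in that comparison was under 0.05. With 2 libraries against 2 an exact permutation test could give no p below 0.33, so each call rests on variances shared between genes. A gene was tested if 2 or more libraries of its table reached 1 FPKM. On this scale the change of a gene with low FPKM is understated. In the table of full-grown oocytes, zygotes and 48 h embryos that left 60 of the 63, without Fancf, Mlh3 and Parp3. Atm, Msh5, Prkdc and Rad54l2 passed only through the 48 h controls, so they had to differ there. In bulk samples, fewer cells of a kind and less RNA per cell cannot be told apart. Log2 changes below are relative to the median change of all genes in the same comparison, which lay at -0.06 for the control step from oocyte to zygote and -0.34 for the control step from zygote to 48 h. Between genotypes this median was -0.04 for growing oocytes, -0.19 for full-grown oocytes, 0.01 for zygotes, 0.43 for the 48 h samples and -0.08 for spindle-transfer embryos. The SE and the test belong to the change before this median was taken off, so where the median is far from 0 a gene such as Ercc4 at 48 h can lie far from it without a call. For the knockout steps it was 0.09 and then 0.02, and for the differences between genotypes 0.20 and then 0.36.

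From the full-grown oocyte to the zygote, Xrcc1, Ercc1 and Xrcc5 fell in the controls, while Rad18, Brca2 and Chek1 rose. Of the 60 tested genes 25 were called, 11 higher and 14 lower in zygotes, beside 42.5% of all genes (18.5% higher and 24.0% lower), a share close to the members' own 41.7%. By role, single-strand break repair had 2 of 4 tested genes lower and none higher, end joining 2 of 5 lower and 1 higher, and damage sensing 3 of 10 higher and 2 lower. Xrcc1 dropped from 35.1 and 57.1 FPKM to 6.18 and 2.38, a log2 change of -3.16 (SE 0.39, limma adjusted p = 0.00016). No zygote library reached the lowest oocyte library. Ercc1, the scaffold of the excision nuclease, stood at -3.16, Xrcc5 and Xrcc6 at -2.39 and -1.86, the helicase subunit Ercc3 at -1.86, the checkpoint clamp subunit Rad9a at -1.70 and Parp2 at -1.60.

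The genes that rose over this step were led by Rad18, from 8.95 and 10.003 FPKM to 29.2 and 35.9 (log2 1.73, SE 0.21, limma adjusted p = 0.00019). Brca2, the recombinase loader, rose by 1.41, Chek1 by 1.27, the clamp subunit Rad1 by 1.13, the helicase Blm by 1.05, ligase IV (Lig4) by 1.05, Pms1 by 0.92 and Palb2, the bridge between Brca1 and Brca2, by 0.90. For each of these 8 genes the zygote libraries lay above the oocyte libraries. They were picked by adjusted p from the same libraries, so this adds no support. The calls of Rad18, Brca2, Chek1 and Rad1 held in 4 of 4 fits that left out a library. Those of Blm, Lig4, Pms1 and Palb2 each held in 1 of 4. Leaving out a library lowered the count of 25 to 14 without either control oocyte library and to 15 without control zygote library 1. The transcripts of the genes that rose had a median longest length of 3797 nt and those that fell one of 2541.5 nt, and the part of length in these calls was not tested.

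Between the zygote and 48 h the control embryos exchanged most of their leading repair transcripts, with Chek2, Parp2 and Rad9a up and Chek1, Pms1 and Palb2 down. Of the 60 tested genes 47 were called, 17 higher and 30 lower at 48 h, beside 76.1% of all genes (33.4% higher and 42.7% lower). The 17 include Atm, Msh5, Prkdc and Rad54l2, which passed the filter only through the 48 h controls. After rescaling the libraries to a common median ratio the split was 24 higher and 23 lower, and Atr, Blm, Ercc5, Fancg, Msh6, Rad52 and Xrcc2 lost their lower call. In homologous recombination 11 of 16 genes were lower and Brca2 and Rad51ap1 higher. The Fanconi genes had 5 of 8 tested members lower and Fancm higher, end joining had 4 of 5 lower and Prkdc higher, and mismatch repair had 4 of 8 lower with Msh5 and Pms2 higher. Nucleotide excision repair had 4 of 7 higher and Ercc5 lower, and both tested poly(ADP-ribose) polymerases, Parp1 and Parp2, were higher.

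Among the damage sensors the 2 checkpoint kinases moved in opposite directions. Chek2, the kinase activated by Atm, rose from 1.03 and 0.995 FPKM in control zygotes to 52.3 and 50.4 at 48 h, a log2 change of 5.04 (SE 0.24, limma adjusted p = 2.1e-08). Chek1 fell from 246 and 316 FPKM to 15.4 and 11.487, a log2 change of -3.95 (SE 0.24, limma adjusted p = 4.5e-08). In both cases the control libraries of the stages were far apart and did not overlap. Rad9a rose from 0.436 and 0.161 to 20.6 and 19.1 FPKM (log2 4.35), and Atm from 0.491 and 0.272 to 3.60 and 3.91 (log2 2.12).

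The other large rises were Ercc1 (log2 4.79), Parp2 (4.16), Rad51ap1 (3.67), the meiotic MutS homologue Msh5 (2.46) and Pms2 (2.56). After Chek1, the falls with the smallest adjusted p were Pms1 (-3.40), Palb2 (-2.72), the meiotic MutS homologue Msh4 (-3.01), Fancc (-2.60), Msh3 (-1.71), Rad51ap2 (-2.13) and Rad18 (-1.63). Pms1 and Pms2, both MutL homologues, thus changed in opposite directions: Pms1 went from 32.7 and 44.7 FPKM to 1.47 and 2.51, and Pms2 from 3.12 and 6.33 to 26.5 and 22.8. Msh4 fell from 16.5 and 23.5 to 1.59 and 0.606 FPKM. Its heterodimer partner Msh5 stood at 0.424 and 0.118 and then at 3.81 and 5.27 FPKM, and like Atm it was tested only because its 48 h controls passed the filter. Rad51d and Fancl were listed at or near 0 in the 48 h controls, at 1.8e-05 and 0.00097 FPKM for Rad51d and 0.019 and 1.9e-05 for Fancl, so no fold is given for them and their log2 values below depend on the pseudocount.

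Since Chek2 and Brca2 rose together over this step while Chek1 and Pms1 fell together, their promoters are shown as the 250 bases before the RefSeq gene start (GRCm38.p6, while the expression tables use mm9), read 5′ to 3′ on the gene's strand. Capitals mark E2F-type letters (TTTCCCGC, TTTCGCGC, TTTGCCGC or TTTGGCGC), the CCAAT box and the OTX-type core TAATCC, each searched on both strands. Chek2 lies at chr5:110839733-110839982 (plus strand), Brca2 at chr5:150522371-150522620 (plus), Chek1 at chr9:36726659-36726908 (minus) and Pms1 at chr1:53297029-53297278 (minus).
Chek2: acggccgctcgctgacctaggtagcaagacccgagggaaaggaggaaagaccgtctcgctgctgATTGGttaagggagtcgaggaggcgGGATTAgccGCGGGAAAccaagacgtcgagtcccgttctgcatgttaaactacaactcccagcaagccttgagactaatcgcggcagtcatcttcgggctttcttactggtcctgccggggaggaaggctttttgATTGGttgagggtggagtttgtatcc
Brca2: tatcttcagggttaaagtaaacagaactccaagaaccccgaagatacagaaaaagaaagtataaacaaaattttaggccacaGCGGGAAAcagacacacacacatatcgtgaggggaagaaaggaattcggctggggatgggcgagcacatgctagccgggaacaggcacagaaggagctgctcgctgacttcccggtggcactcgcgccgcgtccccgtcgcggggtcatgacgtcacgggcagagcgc
Chek1: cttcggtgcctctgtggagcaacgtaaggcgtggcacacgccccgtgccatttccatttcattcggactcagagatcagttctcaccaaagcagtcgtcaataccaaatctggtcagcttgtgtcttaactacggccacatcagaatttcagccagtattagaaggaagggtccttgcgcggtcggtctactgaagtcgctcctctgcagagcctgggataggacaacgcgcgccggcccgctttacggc
Pms1: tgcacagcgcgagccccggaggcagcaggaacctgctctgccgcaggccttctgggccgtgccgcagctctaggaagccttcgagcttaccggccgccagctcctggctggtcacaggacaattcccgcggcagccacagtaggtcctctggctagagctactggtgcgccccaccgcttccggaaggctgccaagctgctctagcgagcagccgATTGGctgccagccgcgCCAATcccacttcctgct
The Chek2 window held 1 E2F-type match, 2 CCAAT matches and 1 TAATCC match, the Brca2 window 1 E2F-type match, and the Pms1 window 2 CCAAT matches. The Chek1 window held none of the 3. A promoter of this table was found for 51 of the 63 genes. E2F-type letters stood in 6 of these 51 (11.8%) and in 2.16% of the 27025 genes with a promoter there. CCAAT stood in 28 of 51 (54.9%) against 37.5% of genes, and TAATCC in 4 of 51 (7.84%) against 7.21%. Among genes called over the control step, E2F-type letters were in 3 of the 13 risers and 3 of the 26 fallers with a promoter, so the letters were found on both sides. The cell cycle element TTTGAA stood in 2 of 51 (3.92%) against 18.3% of genes and TATAAA in 3 of 51 (5.88%) against 14.3%, neither put in capitals. Such matches are a description of the sequence only. The 27025 genes were not selected to resemble the repair genes in expression or type.

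**Figure D2:**
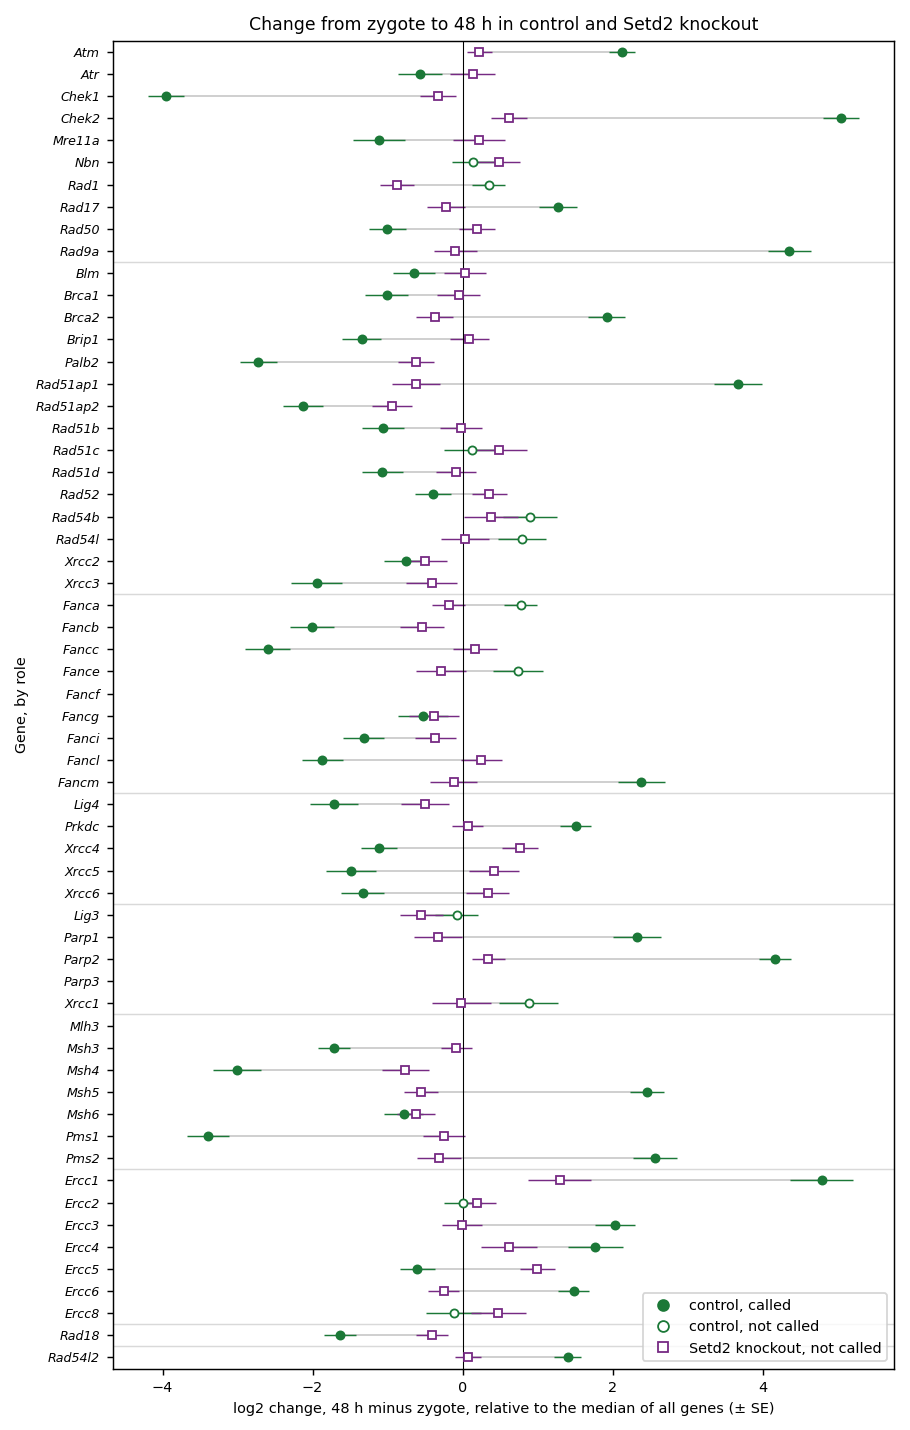
Log2 change from zygote to 48 h, relative to the median of all genes, for tested repair genes in controls (green circles, filled where called) and Setd2 knockouts (purple squares), with bars of 1 SE. Control changes reach 5.04 for Chek2 and -3.95 for Chek1, while no knockout change was called.

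In Setd2 knockout embryos none of the 60 genes was called over the same interval by limma, beside 0.205% of all genes (10 of the 60 had an unadjusted p under 0.05, and 1 gene was called without knockout zygote library 2). The knockout embryos are labelled 1-cell at both times. The 4 measured markers of 2-cell embryos summed to 4.79 to 7.41 FPKM in knockout zygotes. At 48 h they summed to 5.38 to 29.4 FPKM in knockout libraries, against 74.6 to 97.2 in controls. The part of this spread between the knockout libraries was not tested. Chek2 stood at 0.130 and 0.138 FPKM in knockout zygotes and at 1.13 and 0.462 at 48 h, and Chek1 at 246 and 156 and then at 165 and 152. The smallest p-values belonged to the excision nuclease Ercc5 (log2 0.99, limma adjusted p = 0.16), Rad1 (-0.88, 0.22) and Rad51ap2 (-0.95, 0.26).

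The difference between the genotypes over this interval was itself tested, and 44 of the 60 genes were called, beside 66.2% of all genes (36.7% higher and 29.5% lower). For 27 the knockout change was higher than the control change and for 17 it was lower. The 17 include Prkdc and Rad54l2, also admitted only through the 48 h controls. The most certain cases on the lower side were Chek2 (a difference in log2 change of -4.42, SE 0.34, limma adjusted p = 2.4e-06), Parp2 (-3.82), Rad9a (-4.45) and Rad51ap1 (-4.30), followed by Pms2 and Brca2, and by Msh5 and Atm, which the filter admitted only through the 48 h controls. The higher side held Chek1 (3.62, SE 0.34, limma adjusted p = 2.9e-06), Pms1 (3.15), Fancc (2.76), Palb2 (2.10), Msh3, Xrcc4, Fancl and Ercc5. This comparison shares its libraries with the knockout comparisons at each stage, given below.

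**Figure D3:**
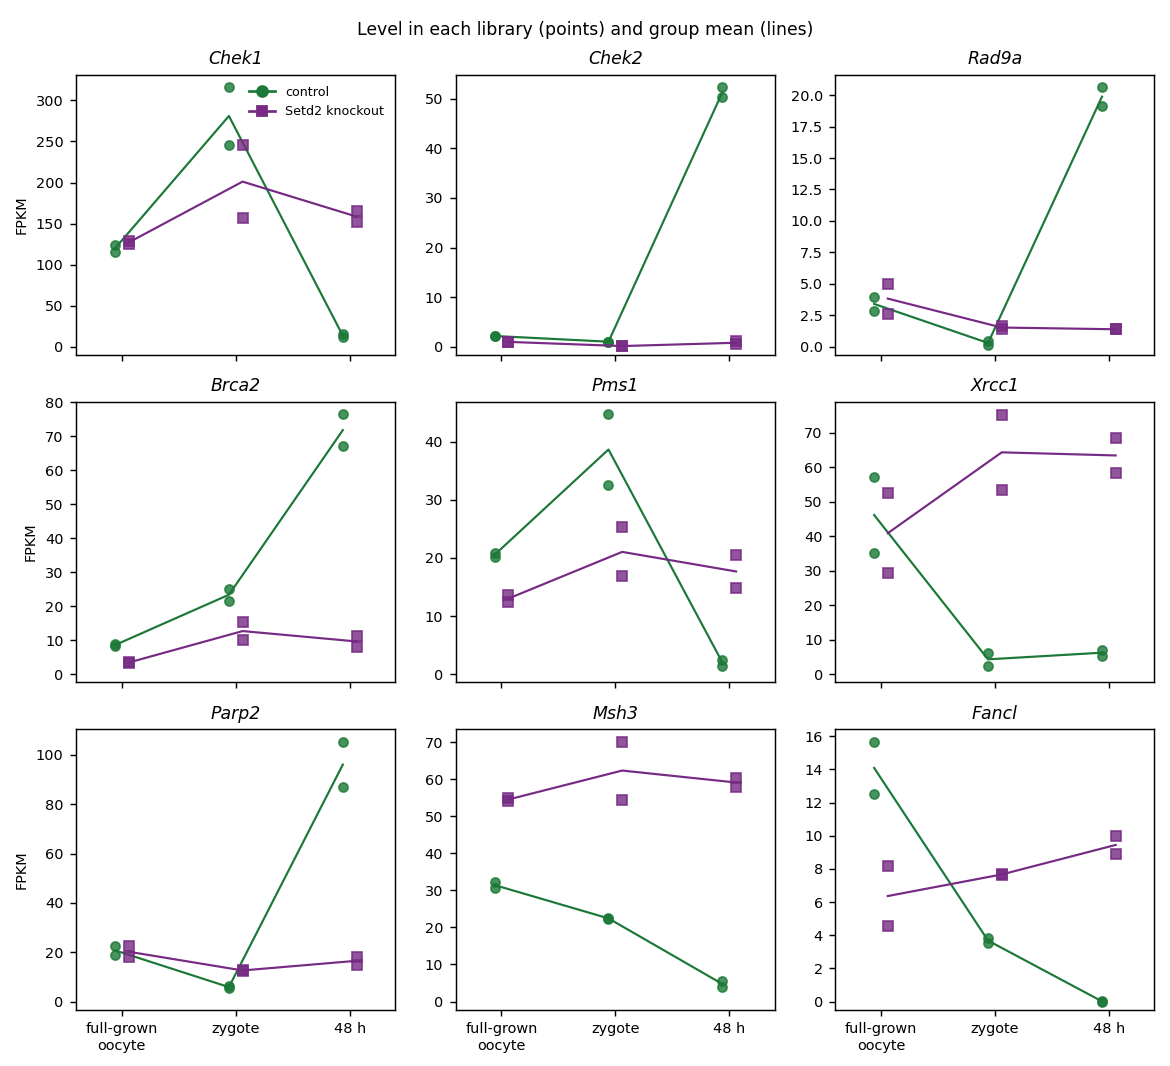
FPKM of 9 repair genes in each library (points) and the mean of each group (lines) at the 3 successive stages, for control (green circles) and Setd2 knockout (purple squares). Xrcc1 in knockout zygotes lies at 53.3 and 75.2 FPKM above controls at 6.18 and 2.38, and control Chek2 climbs to 52.3 and 50.4 FPKM at 48 h where the knockout has 1.13 and 0.462.

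In growing oocytes none of the 61 tested repair genes was called by limma between Setd2-/- and Setd2+/- libraries, where 0.0834% of all genes were (4 of the 61 had an unadjusted p under 0.05). The median of the repair genes lay 0.01 from that of all genes. Pms1 had the smallest p, with 2.54 and 2.88 FPKM in knockout libraries and 7.78 and 7.24 in controls (log2 -1.16, SE 0.38, limma adjusted p = 0.47). Rad18 had 16.9 and 26.9 against 10.7 and 13.0 FPKM (log2 0.84, adjusted p = 0.54) and Rad1 43.0 and 33.0 against 25.0 and 24.5 (log2 0.63, adjusted p = 0.55). The libraries of the genotypes did not overlap for these genes, yet the differences did not pass.

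In full-grown oocytes 5 of the 60 repair genes were called, all lower in the Setd2 knockout, where 6.92% of all genes were called (2.02% higher and 4.89% lower). That is 8.33% of the tested repair genes. Brca2 had 3.26 and 3.54 FPKM in knockout and 8.36 and 8.73 in control oocytes (log2 -0.93, SE 0.25, limma adjusted p = 0.027). Parp1, the polymerase that marks nicks with poly(ADP-ribose), had 1.19 and 2.29 against 5.80 and 6.35 (log2 -1.21, SE 0.32, limma adjusted p = 0.029). Both genes had every knockout library under every control library.

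Among the others were Rad50, the coiled-coil subunit of the Mre11 complex (7.03 and 7.66 FPKM against 15.7 and 15.3, log2 -0.80), and Fancl, the ubiquitin ligase of the Fanconi pathway (4.57 and 8.16 against 12.5 and 15.6, log2 -0.88). Msh3, a mismatch recognition subunit, had 54.2 and 54.8 FPKM in the knockout and 30.6 and 32.3 in the control (log2 0.96, limma adjusted p = 0.051), just outside the threshold. Over the tested repair genes the median was -0.09 relative to all genes.

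None of the 5 was called when any 1 of the 4 libraries was left out, and after rescaling to a common median ratio 1 gene was called lower (Parp1) and 1 higher. Genes listed as markers of the surrounding granulosa cells differed as well. Inha had 14.8 and 15.1 FPKM in control against 0.816 and 0.519 in knockout oocytes, and Cyp11a1 3.20 and 2.37 against 0.293 and 0.323. Fshr went the other way, with 0.415 and 0.180 against 9.49 and 8.25. Of 12 such markers 3 reached 1 FPKM in both control libraries and 2 in both knockout libraries. Their summed level was 32.7 to 35.5 FPKM in controls and 29.2 to 34.1 in knockouts. Cyp19a1 held a large part of each sum, with 15.4 and 13.6 FPKM in controls and 23.4 and 19.6 in knockouts. Cyp19a1 also had 13.1 and 19.7 FPKM in control zygotes, and Fshr 3.08 and 4.18 in knockout zygotes. Inha was 0 in all of these zygote libraries, so the sums need not measure granulosa cells alone. The close sums thus hide the lower Inha and Cyp11a1 of the knockouts. The part of these markers in the result was not tested.

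In zygotes 24 of the 60 repair genes were called, 13 higher and 11 lower in the knockout, beside 31.6% of all genes (18.5% higher and 13.1% lower). The largest difference was that of Xrcc1, in single-strand break repair, where 2 of 4 tested genes were called higher and 2 were not called. Xrcc1 had 53.3 and 75.2 FPKM in knockout zygotes and 6.18 and 2.38 in controls, a log2 difference of 3.69 (SE 0.39, limma adjusted p = 0.00014), and the knockout values reached the level of the control oocytes. Parp2 was higher as well, with 12.4 and 12.8 against 5.46 and 6.24 FPKM (log2 0.98).

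In mismatch repair Msh3 had 70.1 and 54.5 FPKM against 22.4 and 22.5 (log2 1.41, SE 0.21, limma adjusted p = 0.00086). Pms1 was lower at 25.3 and 16.8 against 32.7 and 44.7 FPKM (log2 -0.87), but this call held in 1 of 6 other settings and its adjusted p reached 0.23. For both genes the genotypes did not overlap.

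Among the damage sensors Rad1 was lower, with 14.1 and 12.8 FPKM against 33.6 and 30.3 (log2 -1.20, limma adjusted p = 0.0030), while Rad9a, its partner in the checkpoint clamp, was higher at 1.65 and 1.39 against 0.436 and 0.161 (log2 0.95). Rad50 (log2 -1.02) and Chek2 (-0.84) were lower, Chek2 at 0.130 and 0.138 against 1.03 and 0.995 FPKM, which is near the filter threshold or under it. In end joining Xrcc4, the scaffold of ligase IV, was lower at 6.13 and 5.45 against 13.5 and 16.0 FPKM (log2 -1.22, limma adjusted p = 0.0039), and Lig4 itself was higher at 21.7 and 25.2 against 12.1 and 9.75 (log2 1.03). The calls of Rad1 and Xrcc4 held without each library in turn. That of Rad50 held in 3 of 4 such fits, that of Rad9a in 1 of 4, and those of Lig4 and Chek2 in 0 of 4.

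Homologous recombination had 3 genes higher and 3 lower of 16: Rad51ap1 (log2 1.33), Rad51d (0.87) and the annealing protein Rad52 (0.84) higher, and Blm (-0.90), Brca2 (-0.87) and Palb2 (-0.71) lower. Brca2 had 15.2 and 10.1 FPKM against 25.1 and 21.6. The calls of Brca2 and Rad52 held in 2 of 4 fits without a library, and those of Blm, Rad51d and Palb2 in 1 of 4. In the 6 other settings the call of Blm held in 4, and those of Rad51d and Palb2 in 3. In the Fanconi group Fance (1.16) and Fancl (0.88) were higher and Fancc (-1.09) lower, and in nucleotide excision repair Ercc1 (1.18) and Ercc3 (1.17) were higher and Ercc5 (-0.87) and Ercc6 (-0.70) lower. The Ercc1 call held in 1 of 6 other settings and in 1 of 4 fits without a library, and those of Ercc5 and Ercc6 were lost with the zygote groups fitted alone. Chek1, at 246 and 156 against 246 and 316 FPKM, was not called.

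The zygote count fell from 24 to 12 without control library 1 and to 11 without knockout library 2. Xrcc1, Msh3, Rad1, Xrcc4, Rad51ap1 and Parp2 were among those called in every one of the 4 fits that left out a library. The genes higher in the knockout had a median longest transcript of 2724 nt, those lower one of 4206 nt and those not called one of 3687.5 nt, and the part of length was not tested. Summed oocyte markers (9 genes) were 7318 to 9430 FPKM in knockout zygotes and 4704 to 4975 in controls. The markers did not move together: Zp1, Zp2, Zp3, Gdf9, Figla and Nobox were higher in the knockout, and Oosp1 overlapped. Bmp15 (1036 and 998 against 1294 and 1711 FPKM) and Kit (38.9 and 28.0 against 70.7 and 63.0) were lower. The part of these markers in the differences was not tested.

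**Figure D4:**
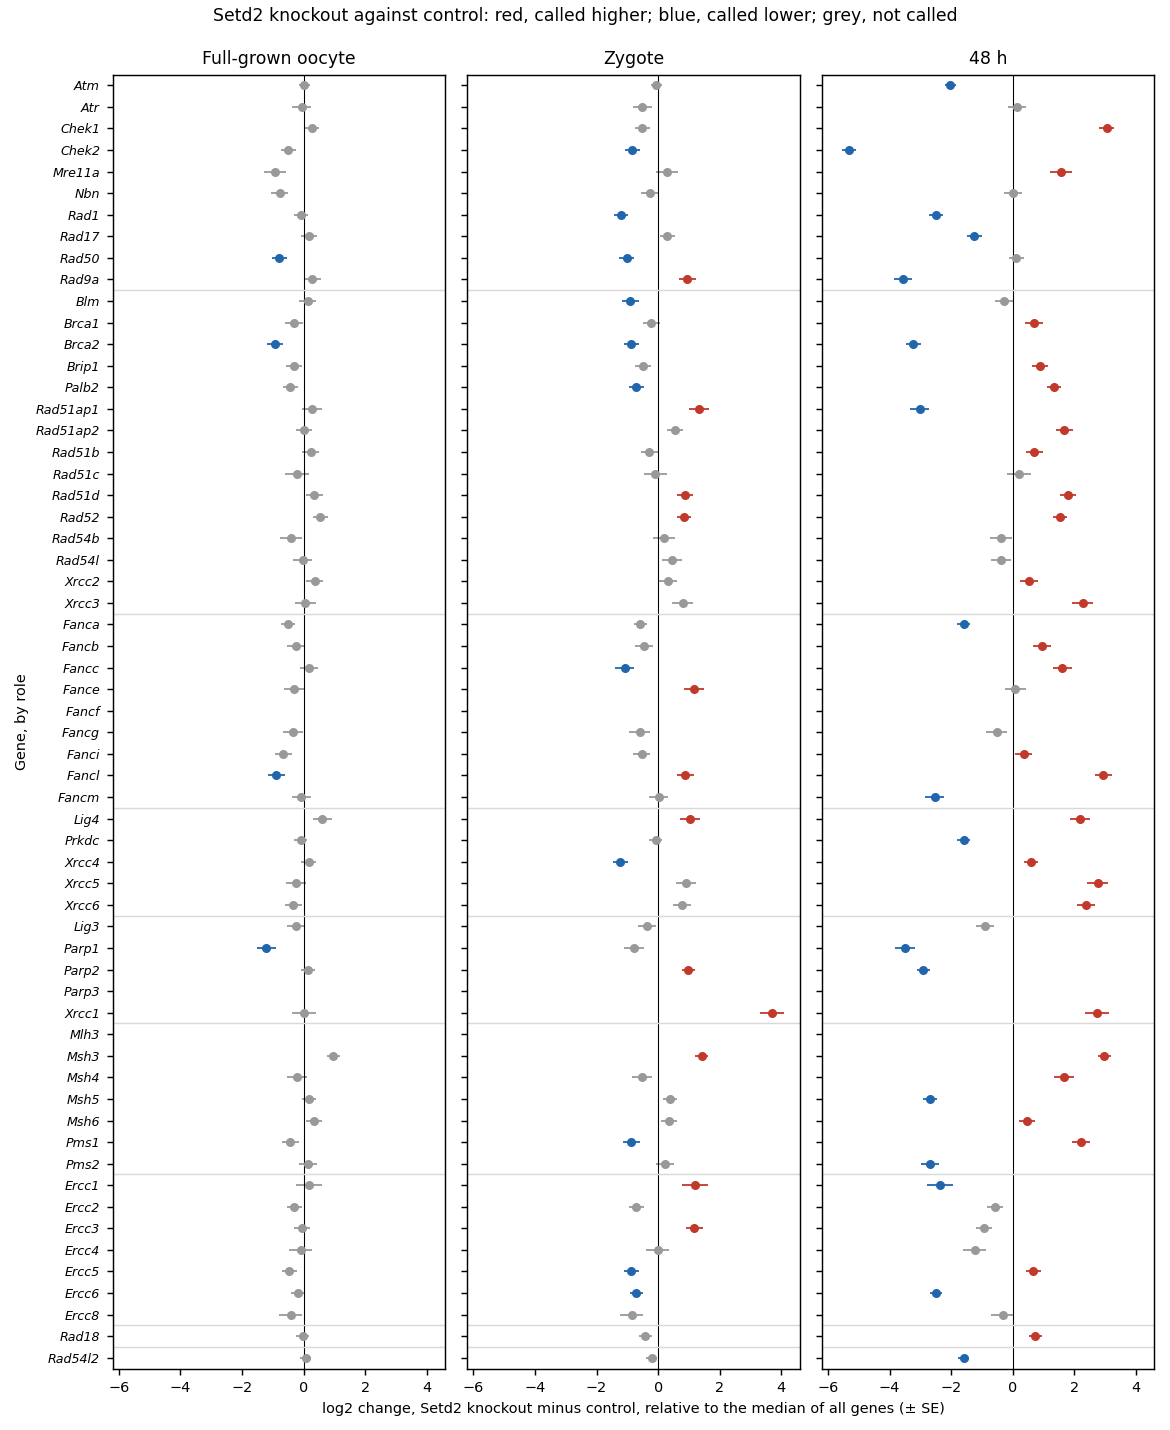
Log2 difference between Setd2 knockout and control, relative to the median of all genes, for tested repair genes at the 3 successive stages, with bars of 1 SE (red, called higher; blue, called lower; grey, not called). Called genes become more frequent from left to right, and the 48 h values run from -5.32 for Chek2 to 3.05 for Chek1.

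Over the step from oocyte to zygote in the knockout, 16 of the 60 genes were called, 11 higher and 5 lower, beside 17.7% of all genes (12.6% higher and 5.10% lower). After rescaling the split was 5 higher and 8 lower. The rises with small adjusted p included Rad18 (log2 1.39), Brca2 (1.52), Lig4 (1.52), Rad51ap2 (1.06), the checkpoint loader Rad17 (0.92), the Fanconi translocase Fancm (1.08) and the nuclease Mre11a (1.16), and the falls were Xrcc4 (-1.65), Ercc1 (-2.11), Fancc (-1.11), Chek2 (-0.89) and Xrcc5 (-1.17). Of these Rad18, Brca2 and Xrcc4 were called in every alternative. The count was 3 without knockout oocyte library 1, 7 without knockout oocyte library 2 and 6 without knockout zygote library 1.

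The difference of this step between genotypes was called for 4 genes, beside 9.39% of all genes, each with the knockout change above the control change, the side on which most calls over all genes lay (8.29% above and 1.10% below). After rescaling 3 were called above and 2 below. Xrcc1 had the largest difference, 3.70 (SE 0.56, limma adjusted p = 0.0026): control libraries went from 35.1 and 57.1 FPKM to 6.18 and 2.38, and knockout libraries from 29.3 and 52.4 to 53.3 and 75.2. Fancl differed by 1.77 and Ercc3 by 1.23. Xrcc1 was called under every alternative, while the count was 1 without control oocyte library 2 or knockout oocyte library 1 and 10 without knockout zygote library 1.

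At 48 h, where controls are 2-cell and knockouts 1-cell embryos, 45 of the 60 repair genes were called, 28 higher and 17 lower in the knockout, beside 73.8% of all genes (43.2% higher and 30.6% lower). Atm, Msh5, Prkdc and Rad54l2 are among the 17 lower calls and enter the counts by role. They passed the filter only through the 48 h controls, so the filter set their direction. After rescaling the split was 23 higher and 21 lower, and Brca1, Fanci, Msh6, Xrcc2 and Xrcc4 lost their call. The summed oocyte markers were 8157 to 8700 FPKM in the knockouts and 238 to 264 in the controls, and their part in these differences was not tested. The median of the tested repair genes was 0.13 relative to all genes.

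Damage sensing had 5 of 10 genes lower and 2 higher. Chek2 had 1.13 and 0.462 FPKM in the knockout and 52.3 and 50.4 in the control, the largest difference of any repair gene tested at this stage (log2 -5.32, SE 0.24, limma adjusted p = 2.0e-08). Chek1 had 165 and 152 against 15.4 and 11.487 FPKM (log2 3.05, SE 0.24, limma adjusted p = 2.5e-07). Rad9a (1.40 and 1.38 against 20.6 and 19.1, log2 -3.56) and Rad1 (5.95 and 8.15 against 32.0 and 32.1, log2 -2.48), both clamp subunits, were lower together. Atm (-2.02, a direction set by the filter) and Rad17 (-1.25) were also lower, and Mre11a (1.57) higher.

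Homologous recombination had 10 of 16 genes higher and 2 lower in the 48 h knockout. Brca2 had 11.2 and 8.05 FPKM against 76.4 and 67.2 (log2 -3.22, SE 0.25, limma adjusted p = 1.7e-06), and Rad51ap1 7.10 and 14.9 against 65.6 and 69.5 (log2 -3.02). The higher genes included Xrcc3 (2.27), Rad51d (1.79), Rad51ap2 (1.68), Rad52 (1.53), Palb2 (1.34), the Brca1-associated helicase Brip1 (0.87), Rad51b (0.70), Brca1 (0.68) and Xrcc2 (0.52). Rad18 was higher (0.74) and Rad54l2 lower (-1.59), the latter in a direction set by the filter.

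The Fanconi group had Fancl, Fancc, Fancb and Fanci higher (log2 2.94, 1.61, 0.95 and 0.36) and Fancm and Fanca lower (-2.54 and -1.59). End joining had Xrcc5 higher at 23.8 and 29.2 against 1.29 and 2.92 FPKM (log2 2.76, limma adjusted p = 6.1e-06). Xrcc6 (2.37), Lig4 (2.18) and Xrcc4 (0.59) were also higher. Prkdc was lower (-1.59), a direction set by the filter. In single-strand break repair Xrcc1 was higher at 68.5 and 58.3 against 5.38 and 7.03 FPKM (log2 2.73), and both poly(ADP-ribose) polymerases were lower: Parp1 at 3.04 and 2.60 against 31.8 and 30.2 (log2 -3.50) and Parp2 at 18.023 and 15.0 against 86.8 and 105 (log2 -2.90). The genotypes did not overlap for any gene of this paragraph given with its libraries.

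In mismatch repair Msh3 was higher at 57.8 and 60.4 against 5.58 and 3.86 FPKM (log2 2.98, SE 0.21, limma adjusted p = 1.1e-07). Pms1 (2.22), Msh4 (1.66) and Msh6 (0.46) were also higher. Pms2 (-2.70) and Msh5 (-2.70) were lower, Msh5 in a direction set by the filter. Nucleotide excision repair had the transcription-coupled repair factor Ercc6 (-2.49) and Ercc1 (-2.37) lower and Ercc5 (0.67) higher. Of the 45 calls 41 held without each library in turn, the exceptions being Fanci, Msh6, Rad17 and Xrcc2.

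In spindle-transfer 8-cell embryos none of the 58 tested repair genes was called by limma between labels, and neither was any other gene, so the share called was 0% (6 of the 58 had an unadjusted p under 0.05). Mre11a had the smallest p, at 3.22 and 4.12 FPKM with the knockout label and 10.2 and 8.03 with the control label (log2 -1.04, SE 0.35, limma adjusted p = 0.29). Palb2 had 1.99 and 1.13 against 5.15 and 3.23 (log2 -0.94, adjusted p = 0.36). These libraries did not overlap, though none of the differences passed.

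In the Dnmt3l pair 35 repair genes reached 5 FPKM in one or both libraries, and none differed by 2-fold, where 1.4% of all genes at that level did. With 1 library per group there is no replicate check. The ratios, as log2 of FPKM + 1, ran from -0.59 for Rad1 (39.3 FPKM in the library labelled knockout and 59.7 in its control) to 0.54 for Pms1 (21.9 and 14.8), with a median of 0.14 beside 0.00 for all genes. In the same order Chek1 had 140 and 130 FPKM in this table, which may have been normalized separately. The 12 genes listed as granulosa markers summed to 25.7 FPKM in the library labelled knockout and 54.4 in its control. Again in that order Inha had 1.63 and 22.1 FPKM, Cyp11a1 0.680 and 13.3, and Cyp19a1 22.1 and 16.0. The part of these markers in the ratios was not tested.

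A wider list of 104 other genes of the DNA damage response was read beside the repair families. Its shares called lay near the 6.92%, 31.6% and 73.8% of all genes in full-grown oocytes, zygotes and 48 h samples. In full-grown oocytes 1 of 100 tested was called higher in the Setd2 knockout, the end-joining factor Nhej1 (log2 1.22), and 5 lower, among them Tdp2 (-1.08), Dna2 (-1.19), the meiotic recombinase Dmc1 (-0.92) and the glycosylase Nthl1 (-0.92). In zygotes 17 were higher, led by the damage-marked histone H2afx (4.21), Shfm1 (2.06), Rnf8 (1.58) and the nuclease Mus81 (2.27), and 17 lower, led by Dmc1 (-1.54), Rad23b (-1.90), Mdc1 (-1.51) and Dclre1b (-1.28). At 48 h 43 were higher and 29 lower, the former led by the glycosylase Neil3 (5.71), Dclre1a (4.34), Tdp1 (4.10) and Mus81 (4.24), the latter by the polymerase Polq (-3.56), Mad2l2 (-3.54), Dclre1b (-3.48) and the cell cycle inhibitor Cdkn1a (-3.87). None was called in growing oocytes, of 103 tested, or in spindle-transfer embryos, of 95 tested.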

How the data were processed

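The authors deposited FPKM values in 4 tables for 22592 symbols and 22 libraries; TopHat2 2.0.11, Cufflinks 2.0.2 and the mm9 build are listed in the submitters' processing notes, with no role given. Each deposited FPKM value was used as given, and no count was made. Tables may have been normalized separately, so tests stayed within a table. Libraries were grouped by their labels. Tests used limma 3.58.1 in R 4.3.3 on log2(FPKM + 1) with a mean per group and trended moderated variances, two-sided, with Benjamini-Hochberg adjustment over all genes tested at 0.05. A gene was kept if 2 or more libraries of its table reached 1 FPKM, which left 61 repair genes for growing oocytes, 60 for the 12 libraries of later stages and 58 for spindle-transfer embryos. The 12 libraries were fitted together. The code was tested on simulated data. Alternatives were a pseudocount of 0.1, no filter, median-ratio rescaling, no variance trend, a replicate block, each library left out and the compared groups alone. The Dnmt3l pair was compared by fold among genes that reached 5 FPKM in one or both libraries.

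Named genes were every repair gene called in a knockout comparison, the 8 smallest adjusted p each way in steps and differences, the leaders by level, the 3 smallest p where none was called, and up to 4 genes of the wider list each way. Msh3 in full-grown oocytes, Chek1 in zygotes and the Dnmt3l pair, and Rad51d and Fancl at the control step were singled out after their values were seen. Some repair genes enter the counts and medians but are not reported here by name or drawn. The members and lists were chosen with earlier results of these data known. Transcript lengths and exon overlaps came from GENCODE vM21 by symbol, and promoters from RefSeq on GRCm38.p6. Depth was estimated from the smallest FPKM steps of 3250 genes with 1 annotated transcript, and values under 1 FPKM rest on few fragments.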

Additional observations from a re-analysis of the deposited data

Results flagged for a closer look

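The Setd2 knockout effect differed between stages for repair genes by the test of the difference itself, on the log2 scale relative to all genes. Between zygote and full-grown oocyte the effect in the zygote was higher by 3.70 for Xrcc1, 1.77 for Fancl and 1.23 for Ercc3. Fancl was called lower in knockout oocytes and higher in knockout zygotes, but each of these calls held in 0 of 4 fits that left out a library, and the oocyte call was lost in 3 of 6 other settings.

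Between 48 h and zygote the largest differences each way by adjusted p were taken. The effect at 48 h was higher by 3.62 for Chek1, 3.15 for Pms1, 2.76 for Fancc, 2.10 for Palb2, 1.62 for Msh3, 1.87 for Xrcc4, 2.12 for Fancl and 1.59 for Ercc5. It was lower for Chek2 (-4.42), Parp2 (-3.82), Rad9a (-4.45), Rad51ap1 (-4.30), Msh5 (-3.02), Atm (-1.91), Pms2 (-2.88) and Brca2 (-2.30). Msh5 and Atm were tested only because the 48 h controls passed the filter on low values, so they had to differ there. Pms1, Fancc, Palb2, Xrcc4 and Ercc5 were called lower in knockout zygotes and higher at 48 h. Of these the zygote call of Pms1 was lost in 5 of 6 other settings and that of Palb2 in 3 of 6, that of Ercc5 was lost with the zygote groups alone, that of Fancc held in 2 of 4 fits without a library, and the 48 h call of Xrcc4 was lost after rescaling. The genes Parp2, Rad9a and Rad51ap1 were called higher in knockout zygotes and lower at 48 h, though the zygote call of Rad9a held in 1 of 4 fits without a library and that of Parp2 was lost with the groups alone. At 48 h the genotypes are also different cell stages, and genotype and stage cannot be told apart there.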

How the results depend on the processing

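No repair gene that was called changed sign under any alternative. Outside fits that left out a library, 1144 of 1258 recomputed member calls were kept and 114 lost, and with 1 library left out 825 of 1008 were kept and 183 lost. In full-grown oocytes the 5 calls became 2 with a pseudocount of 0.1, 1 with no filter, 2 after median-ratio rescaling and 12 with the compared groups alone, and 0 to 0 without 1 library. In zygotes the 24 became 10 with the compared groups alone and 11 to 27 without 1 library. For the control step from oocyte to zygote the 25 became 16 with no filter and 14 to 19 without 1 library. In the knockout the 16 became 8 with no filter, 9 with the groups alone and 3 to 19 without 1 library, and the 4 calls of the difference became 1 to 10. The knockout step to 48 h gave 0 to 1 without 1 library. Growing oocytes, spindle-transfer embryos and the Dnmt3l pair gave 0 throughout. The cause of these shifts was not tested, and fits that leave a library out also hold fewer samples. With a replicate block the repair gene counts were 4 for full-grown oocytes, 23 for zygotes and 45 for the 48 h embryos, and none moved by over 1.5 times. Over all genes the block raised the calls from 9 to 129 in growing oocytes and from 0 to 15 in spindle-transfer embryos, none of them a repair gene. Whether replicate numbers pair the libraries cannot be decided with 2 libraries per group. Deviations of same-numbered libraries correlated at 0.042, 0.20, 0.086, 0.0007 and 0.072 from growing oocytes to spindle-transfer embryos. Groups of 2 libraries and zygote depths of about 3060000 to 3365000 fragments limit the smaller differences.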
